A study of Mus musculus with 24 samples.

Results

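The mouse mitochondrial genome contributed 37 of the 55335 genes counted in cultured primary osteoblasts (OBs). They were chosen as all genes whose symbol begins with mt-, a rule that uses the annotation and no measured value. These genes comprise 13 mRNAs, 2 rRNAs and 22 tRNAs. Between 0.792% and 1.75% of the counts of a library fell on them (mean 1.38%, n = 24), and the values below describe each class over genotype and over days 8, 14 and 21 after seeding.

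The mitochondrial genome is a small circular DNA that is transcribed from both strands into long precursors, which are cut mostly at the tRNAs that lie between the other genes. Its mRNAs encode core subunits of respiratory complexes I, III and IV and of the ATP synthase (complex V). Its rRNAs and tRNAs serve the mitochondrial ribosome that translates those mRNAs, while every protein needed for the replication, transcription, processing and translation is encoded in the nucleus. OBs use oxidative phosphorylation as well as glycolysis while they secrete collagen matrix.

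The cells were parietal OBs of C57BL/6J background pups aged 4 to 5 days, either wild type (WT) or heterozygous (Het) for an osteogenesis imperfecta allele of Col1a2, in which a cysteine takes the place of a glycine of the collagen triple helix. Both genotypes received the same osteogenic differentiation, and each of the 6 groups (WT and Het at day 8, day 14 and day 21) holds 4 libraries of polyadenylated RNA. Plated cells came from pools of pups of the same genotype, so libraries are wells rather than separate animals. The p-values measure the spread between the libraries of a group. The reported fit leaves replicate number out, so this spread also holds differences between replicate numbers, such as the split described below. The paper describes separate experiments with different litters, plating density and oxygen level during the first days of culture, but the labels do not tie a library to an experiment.

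Library totals ran from 17140202 to 59734231 counts (median 48340136). Replicate 1 was shallower in every group, with a median of 23926750.5 against 51462304 in replicates 2 to 4, and it stands apart in several results, so values are given with and without it. Levels are given as RQ, a relative quantity: each count was divided by a per-library factor, namely the geometric mean over 4 housekeeping genes (Sdha, Mrfap1, Actb and Actg1). Sdha is itself a nuclear-encoded subunit of a respiratory complex. The 7 OB markers had a median summed RQ of 42.5 in WT and 32.8 in Het at day 8, of 164.5 and 110 at day 14, and of 177.3 and 146.7 at day 21. Most of these sums was Col1a1, while the late marker Bglap was at or below 0.00363 in every library at day 8. The 10 macrophage and osteoclast markers had a median summed RQ of 0.741 in WT and 1.19 in Het at day 8, 2.65 and 6.80 at day 14, and 6.66 and 10.7 at day 21. Most of this sum at day 21 was Lyz2 (median 3.99 in WT and 7.31 in Het). Acp5, Ctsk and Ocstamp had lower medians in Het on that day, with overlapping ranges, and the other markers of this list had higher ones. The median summed RQ of the 5 chondrocyte markers moved the other way, from 24.5 in WT and 12 in Het at day 8 to 7.99 and 2.24 at day 21. Most of this sum at day 8 was Col2a1 (median 19.95 in WT and 10.47 in Het). Comp rose instead between these days, from a median of 1.01 to 3.39 in WT and from 0.415 to 0.984 in Het. In replicate 1 at day 8 the sum of the chondrocyte markers (35.4 in WT, 34.2 in Het) exceeded that of the OB markers (17.4 and 18.4). Muscle, adipocyte and endothelial lists stayed at or below a summed RQ of 0.0238 in every library. The part of these other cells in the results below was not tested, and in bulk RNA fewer cells of a type and less RNA per cell cannot be told apart.

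Nuclear chromosomes carry copies of mitochondrial DNA, and several of these genes have such a copy in the annotation. The following stretch of mt-Co2, the mRNA of cytochrome c oxidase subunit 2 (GRCm38, chrM:7457-7546, plus strand, bases 445 to 534 of the gene), is shown with the same stretch in its annotated copies Gm28661 (chr1:24615032-24615121, minus strand) and Gm13341 (chr2:22587441-22587530, minus strand). Capitals mark bases of a copy that differ from mt-Co2. All sequences are from GENCODE mouse release 21 transcripts.
mt-Co2: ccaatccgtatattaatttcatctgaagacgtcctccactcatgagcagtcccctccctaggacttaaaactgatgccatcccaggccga
Gm28661: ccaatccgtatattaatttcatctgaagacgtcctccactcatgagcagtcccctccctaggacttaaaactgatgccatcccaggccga
Gm13341: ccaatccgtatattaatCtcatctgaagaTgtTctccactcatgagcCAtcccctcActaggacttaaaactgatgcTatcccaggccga
The Gm28661 stretch has 0 differences, so a read from it carries nothing that separates it from mt-Co2, whereas Gm13341 differs at 7 of the 90 bases.

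Genes also overlap on the mitochondrial genome itself. The mRNA of ATP synthase subunit 8, mt-Atp8 (chrM:7766-7969, plus strand), is shown whole, with the 43 bases that also belong to mt-Atp6 in capitals.
mt-Atp8: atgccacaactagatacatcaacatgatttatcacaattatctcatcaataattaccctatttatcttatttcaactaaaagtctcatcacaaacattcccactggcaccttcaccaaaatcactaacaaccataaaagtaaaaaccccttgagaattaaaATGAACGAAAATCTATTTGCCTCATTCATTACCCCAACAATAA
Smaller overlaps join mt-Nd4l with mt-Nd4 (7 bases, same strand) and mt-Nd5 with mt-Nd6 (14 bases, opposite strands). How reads in such overlaps, and reads with several matching places, were assigned is not given in the sources used here.

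The 6 tRNAs on which the time course below turns, or which carry the most counts, are shown whole with the anticodon in capitals. mt-Th, mt-Ts2 and mt-Tl2 (tRNAs for histidine, serine and leucine) adjoin one another between mt-Nd4 and mt-Nd5 at chrM:11546-11612, chrM:11613-11671 and chrM:11671-11741 on the plus strand. mt-Tl1 (leucine, chrM:2676-2750) follows mt-Rnr2, mt-Tg (glycine, chrM:9391-9458) lies between mt-Co3 and mt-Nd3, both on the plus strand, and mt-Te (glutamate, chrM:14071-14139) is on the minus strand beside mt-Nd6.
mt-Th: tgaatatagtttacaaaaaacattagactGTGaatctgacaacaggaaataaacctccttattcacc
mt-Ts2: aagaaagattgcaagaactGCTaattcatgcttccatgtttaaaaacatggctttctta
mt-Tl2: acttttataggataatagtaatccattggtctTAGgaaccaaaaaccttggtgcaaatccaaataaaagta
mt-Tl1: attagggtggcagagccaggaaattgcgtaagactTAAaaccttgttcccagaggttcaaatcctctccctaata
mt-Tg: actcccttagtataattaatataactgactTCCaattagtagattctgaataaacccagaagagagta
mt-Te: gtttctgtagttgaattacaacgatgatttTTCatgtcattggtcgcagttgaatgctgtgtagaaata
mt-Tl1 and mt-Tl2 both accept leucine but carry different anticodons.

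Of the 14087735 counts on the 37 genes, 13745939 lay on the 13 mRNAs, and 7 of these held nearly all of them. mt-Nd1, mt-Nd2, mt-Nd4, mt-Nd5 and mt-Nd6 (subunits of complex I, the NADH dehydrogenase), mt-Cytb (the complex III subunit cytochrome b) and mt-Co1 (catalytic subunit of complex IV) together held 99.95% of the mRNA counts. The 6 others, mt-Co2 and mt-Co3 of complex IV, mt-Atp6 and mt-Atp8 of complex V and mt-Nd3 and mt-Nd4l of complex I, held 7189 counts in 24 libraries. No library overlapped between the sets, since the lowest RQ per kb of any of the 7 was 0.646 and the highest of any of the 6 was 0.0477, and the lowest mean of the 7 was 147 times the highest mean of the 6. The 6 are exactly the mRNAs that lie whole inside chrM:6390-11042, a stretch of 4653 bases whose annotated copies line up along chromosome 1.

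**Figure D1:**
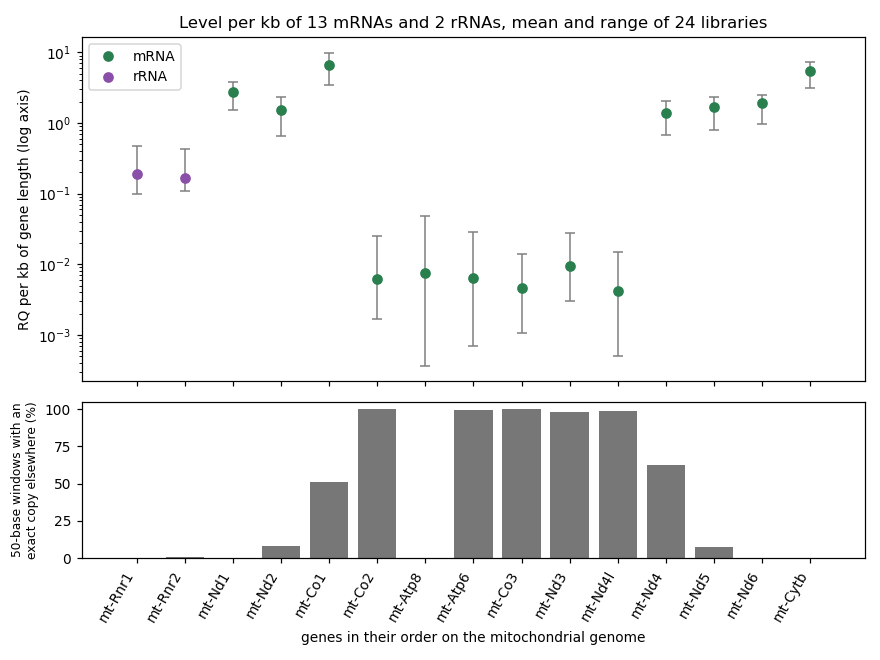
Level in RQ per kb of gene length (log axis, mean of 24 libraries with the lowest and highest library) of the 13 mRNAs and 2 rRNAs in genome order, above the percentage of 50-base windows of each gene with an exact copy in another annotated transcript. The 6 mRNAs from mt-Co2 to mt-Nd4l sit below 0.0477 in every library, while the 7 others sit above 0.646. mt-Atp8, inside the copied stretch, has 0% of such windows, but only annotated transcripts were searched. The 43 bases that it shares with mt-Atp6 are copied in Gm10925 and are shorter than a window.

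Per kb of gene length, mt-Co1 had the highest mean level (RQ 6.72 per kb), followed by mt-Cytb (5.39) and mt-Nd1 (2.77), and the order of these neighbours was the same in 24 of 24 libraries. mt-Nd6 (1.90) and mt-Nd5 (1.67) came next, each below its upper neighbour in 23 of 24 libraries. mt-Nd5, mt-Nd2 (1.54) and mt-Nd4 (1.40) were not separated beyond their spread, with the upper gene higher in 15 and in 14 of 24 libraries. The rRNAs mt-Rnr1 (0.189) and mt-Rnr2 (0.164) lay below every one of the 7 mRNAs in this scale. These libraries were made from polyadenylated RNA, and rRNA and tRNA values are values of what that protocol captured.

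Counts divided unequally among the mRNAs. mt-Co1 took 38.8% ± 2.51 (SD, n = 24) of the mRNA counts, mt-Cytb 23.1% ± 1.31 and mt-Nd5 11.4% ± 0.77. mt-Nd1 took 9.91% ± 1.21, mt-Nd4 7.21% ± 0.49, mt-Nd2 5.87% ± 0.95 and mt-Nd6 3.69% ± 0.30. From day 14 to day 21 the mean share of mt-Nd1 went from 10.5% to 8.52% in WT, where the lowest library at day 14 (10.2%) was above the highest at day 21 (9.24%), and from 10.5% to 8.39% in Het (9.02% and 8.97%). That of mt-Co1 averaged 37.2% and 40.9% in WT on these days, and no test of shares was run. mt-Nd6 is the one mRNA encoded on the minus strand, and its count per 100 counts of mt-Nd5 on the plus strand stayed between 27.8 and 36.4 (mean 32.5).

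The nuclear copies were counted as genes of their own. At 95% identity over at least 200 bases, 11 annotated genes match 9 of the 37 members, 7 of them on chromosome 1, and 5 are identical to the member over the aligned length. They held 16677 counts in all, more than the 7189 of the 6 mRNAs inside the stretch. Gm28661 (chr1:24614885-24615565, 100% identical to mt-Co2 over 681 bases) had 3214 counts against 1493 for mt-Co2 itself. Gm10925 (chr1:24613974-24614651, 100% over 678 bases of mt-Atp6) had 3205 against 1544, and Gm28437 (chr1:24613189-24613971, 100% over 783 bases of mt-Co3) had 2718 against 1468. The remaining copies with most counts match mt-Co1, whole or in part, which had 5334702 counts: Gm29216 (chr1:24615706-24616197, 99.8% over 483 bases) had 3063, and Gm13340 (chr2:22588103-22589647, 97.6% over 1545 bases) had 2013.

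Copies were also sought base for base in windows of 50 bases. The share of windows of the gene found unchanged in another annotated transcript was 100% for mt-Co2, 99.9% for mt-Co3, 99.5% for mt-Atp6, 98.8% for mt-Nd4l and 98.0% for mt-Nd3. It was 62.2% for mt-Nd4, 51.1% for mt-Co1, 8.19% for mt-Nd2, 7.61% for mt-Nd5 and 0% for mt-Nd1, mt-Nd6 and mt-Cytb, but also 0% for mt-Atp8 inside the stretch. A copy of mt-Atp8 outside annotated transcripts would not have been found, and the 43 bases it shares with mt-Atp6 are shorter than a window. The annotated copies on either side of it, Gm28661 and Gm10925, line up at the same offset on chromosome 1. The cause of the low counts in the stretch was not tested, and the levels of the 6 mRNAs are therefore uncertain as levels of mitochondrial RNA.

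Replicate 1 was above the other libraries for several of these mRNAs and for the copies. The median RQ of mt-Co2 was 0.0124 in the 6 libraries of replicate 1 and 0.00137 in the 18 of replicates 2 to 4, a ratio of 9.03. The ratio was 10.9 for mt-Atp6, 5.29 for mt-Co3 and 4.96 for mt-Nd4l, but 1.19 for mt-Nd3 and 1.14 for mt-Co1. For the copies it was 5.44 for Gm28661, 7.10 for Gm10925 and 6.10 for Gm28437. Replicate 1 also differs in depth, and what else its libraries share is not given in the labels, so the source of this split was not tested.

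Between genotypes, 0 of the 34 members that passed the filter on low counts were called at days 14 and 21 together, by edgeR's quasi-likelihood test with Benjamini-Hochberg adjustment over all 20287 genes (adjusted p under 0.05), where 15.3% of all genes were called. Unadjusted p was under 0.05 for 1 member, mt-Rnr2, and DESeq2 also called 0, with 2 unadjusted. At day 8 edgeR called 0 members (0.641% of all genes), with 1 unadjusted, and DESeq2 called 0, with 1 unadjusted. The Het estimates lay below 0 for 13 of 13 mRNAs at days 14 and 21, with a median log2 fold change of −0.32 against −0.05 over all genes. For the 7 mRNAs outside the stretch the median was −0.23, and the percentage of the library on all members averaged 1.38% in WT and 1.23% in Het at day 14, and 1.42% and 1.32% at day 21. At day 8 the medians were −0.27 for the 13 mRNAs and −0.07 for all genes.

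Among the complex I mRNAs, mt-Nd1 had RQ of 3.65, 2.85, 2.88 and 2.96 in WT replicates 1 to 4 at day 14, and of 2.04, 1.45, 3.62 and 3.10 in Het. At day 21 the values were 3.39, 2.25, 2.21 and 2.72 in WT and 3.03, 2.22, 1.95 and 2.04 in Het. The Het cultures were the more scattered at day 14, with replicates 1 and 2 below every WT library and replicate 4 above WT replicates 2 to 4, and the groups overlapped on both days. Het day 14 replicate 1 had 17140202 counts, the lowest total of all libraries. Het day 14 replicate 2 had 28159342, the lowest among replicates 2 to 4. The part of depth in this scatter was not tested. The fitted log2 fold change of mt-Nd1 was −0.23 (SE 0.17, adjusted p = 0.387 by edgeR), or −0.50 in replicate 1 and −0.20 in replicates 2 to 4. mt-Nd2 gave −0.37 (SE 0.23, adjusted p = 0.289), mt-Nd4 −0.22 (SE 0.15, adjusted p = 0.323) and mt-Nd5 −0.25 (SE 0.15, adjusted p = 0.269), all by edgeR.

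mt-Nd6 had the lowest adjusted p of the 7 mRNAs. Its RQ was 1.12, 1.06, 1.12 and 1.03 in WT at day 14 against 0.704, 0.583, 1.30 and 1.01 in Het. At day 21 it was 1.25, 1.1, 1.24 and 1.22 in WT against 1.20, 1.00, 0.814 and 0.967 in Het. Het replicate 3 at day 14 was the highest library of the 16, and the day 21 groups overlapped only through Het replicate 1. The log2 fold change was −0.27 (SE 0.14, edgeR adjusted p = 0.207). Without Het day 14 replicate 3, 2 members were called in this comparison, mt-Nd6 (log2 fold change −0.39, edgeR adjusted p = 0.0472) and mt-Te (−0.69, edgeR adjusted p = 0.0139). The share of all genes called in that fit is not given here.

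mt-Cytb of complex III had RQ of 8.05, 6.40, 6.52 and 6.46 in WT and of 4.73, 3.57, 7.12 and 6.45 in Het at day 14. mt-Co1 of complex IV had RQ of 11.6, 10.5, 10.6 and 10.6 in WT and of 6.53, 6.87, 11.8 and 11 in Het on that day. In both genes Het replicates 1 and 2 were below every WT library while Het replicate 3 was above WT replicates 2 to 4. At day 21 mt-Co1 was at 15.2, 11.2, 11.6 and 12.6 in WT and at 14, 10.3, 10.03 and 11 in Het, so the groups overlapped again. Log2 fold changes over both days were −0.21 for mt-Cytb (SE 0.14, edgeR adjusted p = 0.325) and −0.20 for mt-Co1 (SE 0.14, edgeR adjusted p = 0.355).

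At day 8 the Het group was likewise wider than the WT group. mt-Co1 had RQ of 11.2, 9.71, 9.13 and 9.23 in WT and of 12.1, 8.92, 5.35 and 8.26 in Het, with Het replicate 3 the lowest and Het replicate 1 the highest of the 8. The summed RQ of the 13 mRNAs was 29.6, 27.7, 24.5 and 24.9 in WT and 31.6, 23.4, 14.1 and 22.0 in Het. The log2 difference of mt-Co1 was −0.18 (SE 0.20, edgeR adjusted p = 0.852), with 0.11 in replicate 1 and −0.35 in replicates 2 to 4.

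**Figure D2:**
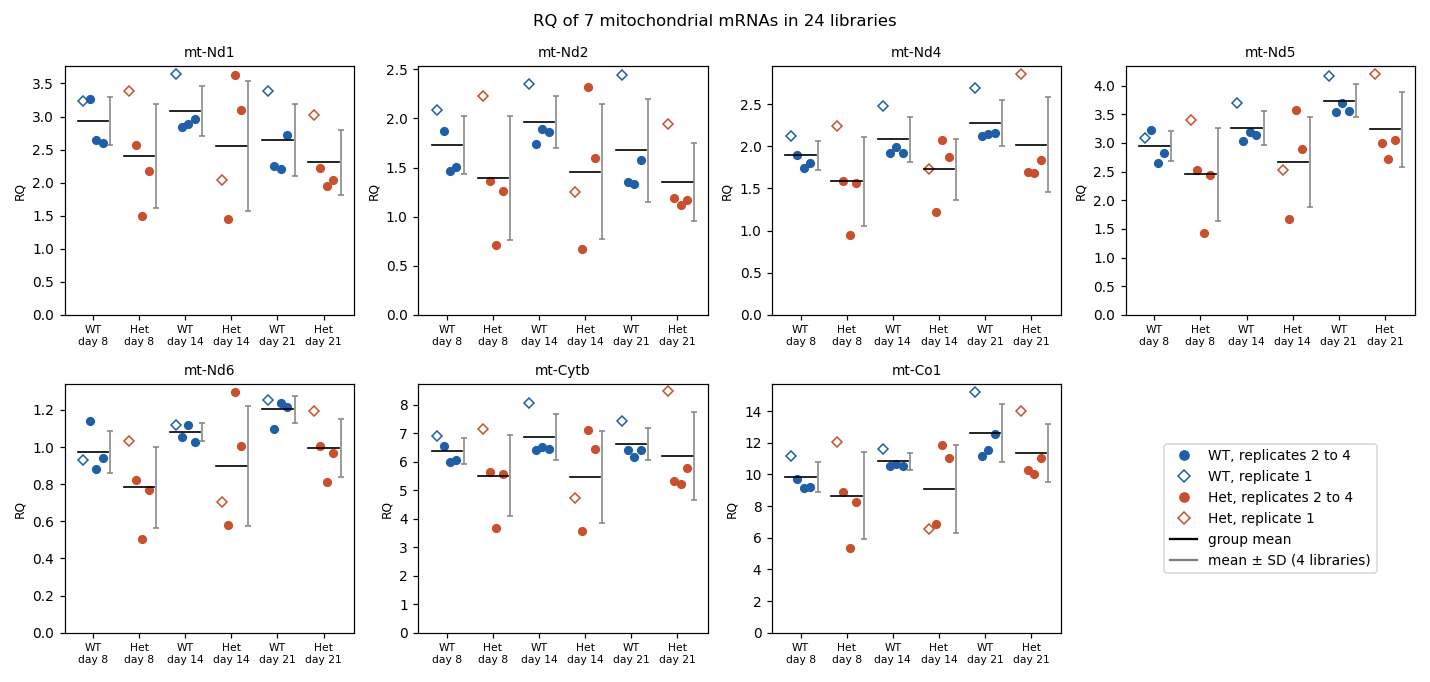
RQ (linear axes from 0) of the 7 mRNAs outside the copied stretch in each of the 24 libraries by genotype and day, with open diamonds for replicate 1, black bars for group means and grey bars for mean ± SD of 4 libraries. Het libraries at day 14 spread from below every WT library to above most of them, as for mt-Co1 at 6.53 to 11.8 against 10.5 to 11.6 in WT.

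The 6 mRNAs inside the stretch had wide errors, which include the difference between replicate 1 and replicates 2 to 4. Log2 fold changes of Het against WT at days 14 and 21 were −0.48 (SE 0.81) for mt-Co2, −0.41 (SE 0.63) for mt-Co3, −0.93 (SE 0.85) for mt-Atp6 and −1.19 (SE 0.91) for mt-Atp8. For mt-Nd3 and mt-Nd4l they were −0.38 (SE 0.36) and −0.32 (SE 0.66). In replicates 2 to 4 alone the estimates ran from −0.66 for mt-Atp8 to −0.00 for mt-Nd4l. Counts were as low as 1 in a library for mt-Atp8 and 4 for mt-Nd4l.

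From day 8 to day 14, over both genotypes, 8 of 34 tested members were called (47.9% of all genes), 7 of them higher (34.3% of all genes) and 1 lower (13.6% of all genes). The calls were both rRNAs, 5 tRNAs and 1 mRNA, mt-Nd3. None of the 7 mRNAs outside the stretch was called: their log2 fold changes ran from 0.05 to 0.18, with a median of 0.13 against 0.12 over all genes. Within replicate 1 the changes of these 7 mRNAs ran from −0.42 to −0.07, and within replicates 2 to 4 from 0.12 to 0.29, opposite in sign. The lack of a call therefore does not show a lack of change. With replicate number as a block, an alternative described with the methods, 10 members were called, the additional ones being mt-Ti and mt-Tp. The share of all genes called with the block is not given here.

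**Figure D3:**
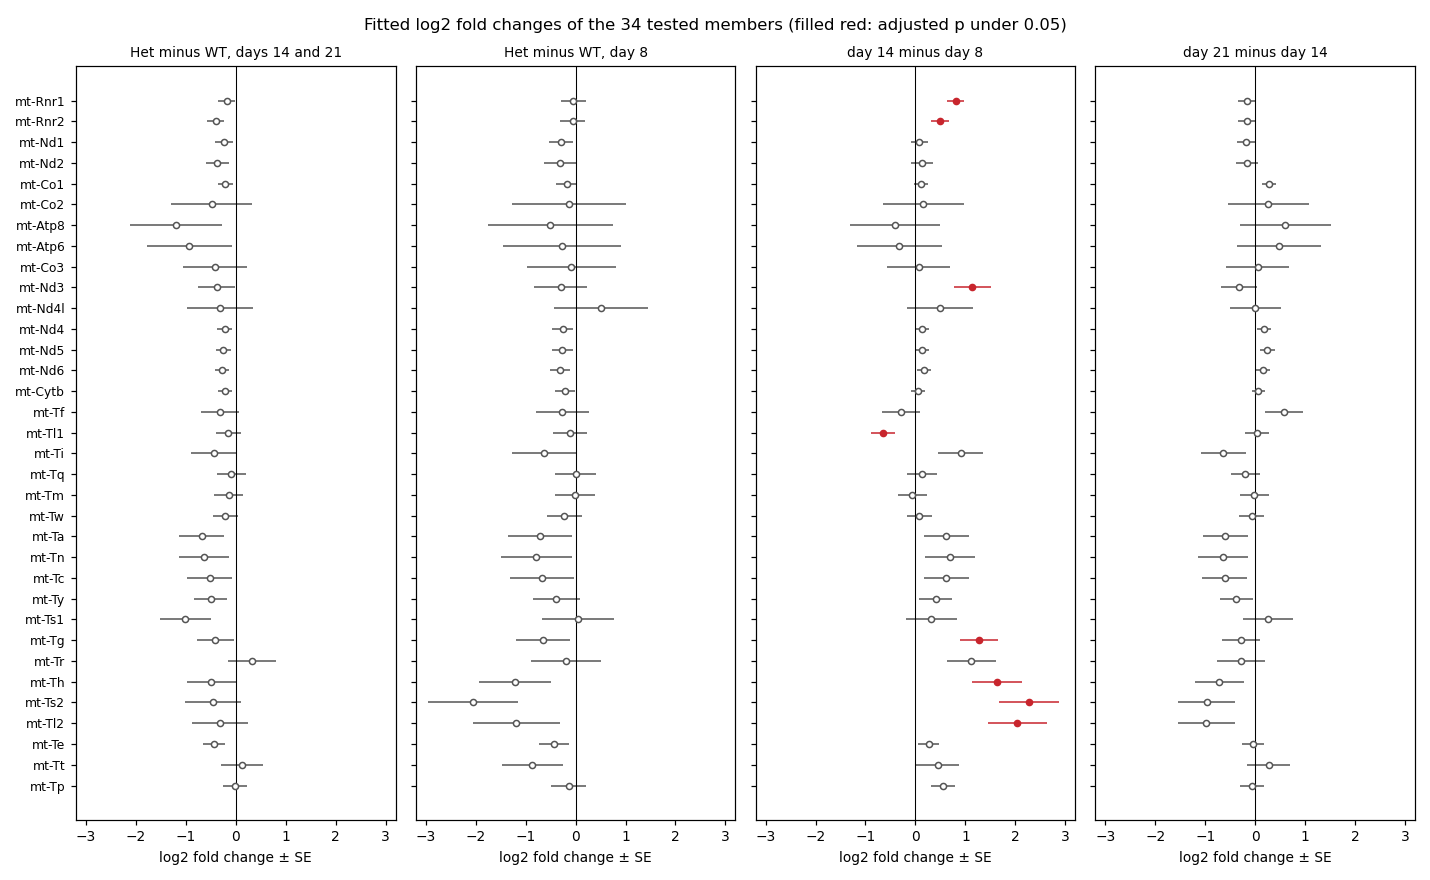
Fitted log2 fold change ± SE (horizontal axes) of the 34 tested members in 4 comparisons, with members in rows and filled red points for an adjusted p under 0.05. Filled points occur only from day 8 to day 14, at 7 members above 0 and at mt-Tl1 below 0, and the genotype estimates at days 14 and 21 lie mostly left of 0.

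The rRNAs rose. mt-Rnr1, the small ribosomal RNA, had RQ of 0.0948, 0.153, 0.145 and 0.118 in WT at day 8 and of 0.448, 0.166, 0.179 and 0.174 at day 14. In Het it went from 0.114, 0.149, 0.111 and 0.121 to 0.137, 0.211, 0.242 and 0.210. The WT groups did not overlap, and the Het groups overlapped only through replicate 1 at day 14. The log2 fold change was 0.80 (SE 0.17, edgeR adjusted p = 0.000616), with 1.25 in replicate 1 and 0.57 in replicates 2 to 4, and it was called in 43 of 43 alternative settings.

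mt-Rnr2, the large ribosomal RNA, rose by less, with a log2 fold change of 0.49 (SE 0.18, edgeR adjusted p = 0.0271). Its RQ in WT was 0.211, 0.247, 0.215 and 0.189 at day 8 and 0.671, 0.227, 0.243 and 0.262 at day 14. In Het it was 0.235, 0.229, 0.172 and 0.195 at day 8 and 0.214, 0.246, 0.301 and 0.246 at day 14. Both genotypes overlapped between days, and WT replicate 1 at day 14 was far above all others. The call was kept in 32 of 43 settings and was lost, among others, under TMM scaling (0.35), under total count scaling (0.21) and without WT day 14 replicate 1.

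The rRNA pair also changed in proportion. mt-Rnr1 per 100 counts of mt-Rnr2 averaged 59.1 in WT and 59.98 in Het at day 8, 70.1 and 78.7 at day 14 and 68.5 and 81.2 at day 21, values for which no test was run. Between genotypes at days 14 and 21 the log2 difference was −0.18 for mt-Rnr1 (SE 0.17, edgeR adjusted p = 0.536) and −0.40 for mt-Rnr2 (SE 0.18, edgeR adjusted p = 0.127). Replicate 1 gave −0.90 and −0.98, whereas replicates 2 to 4 gave 0.13 and −0.11.

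Among the tRNAs, mt-Te alone held 33.4% ± 5.12 (SD, n = 24) of the tRNA counts of a library. The 6 with the highest mean count were mt-Te (1686.5 per library), mt-Tn (578.9), mt-Tl1 (531.2), mt-Tc (491.8), mt-Tp (427.2) and mt-Ta (392.8). Per kb, mt-Te (RQ 1.12) stood above mt-Tn (0.379) and the others. The tRNAs mt-Tv, mt-Td and mt-Tk did not pass the filter on low counts, and mt-Tk, the lysine tRNA, had 0 counts in 24 of 24 libraries. mt-Td, the aspartate tRNA, was at 0 in 17 libraries, and both it and mt-Tk lie in the copied stretch.

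The histidine, serine and leucine tRNAs that adjoin one another rose together from day 8 to day 14. mt-Th had RQ of 0.000429, 0.00311, 0.00125 and 0.00172 in WT at day 8 and of 0.00356, 0.00322, 0.00390 and 0.00334 at day 14. In Het it went from 0.000996, 0.000675, 0.000662 and 0.000581 to 0.000453, 0.000819, 0.00894 and 0.00261. The WT groups did not overlap, whereas in Het replicate 1 at day 14 was the lowest library and replicate 3 the highest. The log2 fold change was 1.64 for mt-Th (SE 0.50, edgeR adjusted p = 0.0103), 2.28 for mt-Ts2 (SE 0.60, edgeR adjusted p = 0.00349) and 2.04 for mt-Tl2 (SE 0.59, edgeR adjusted p = 0.00714).

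These 3 tRNAs rest on few counts and much on 1 library. The sum of their counts ran from 9 to 705 per library, with 705 in Het day 14 replicate 3 and 9 in Het day 14 replicate 1. Without Het day 14 replicate 3 the calls of mt-Th, mt-Tl2, mt-Tg, mt-Nd3 and mt-Rnr2 were lost and 3 members were called in all, while without replicate 3 of every group only 1 was. The shares of all genes called in these fits are not given here. mt-Ts2 lost its call without replicate 3 and in WT alone. For mt-Ts2 at day 8, RQ was 0.000343, 0.00175, 0.000686 and 0.000828 in WT and 0.000285, 0.000169, 0.000184 and 0.000258 in Het, groups that did not overlap, with a log2 difference of −2.05 (SE 0.90, edgeR adjusted p = 0.434).

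mt-Tg, the glycine tRNA, and mt-Nd3, the complex I mRNA that follows it, also rose. mt-Tg had RQ of 0.00171, 0.00252, 0.00149 and 0.00110 in WT at day 8 and of 0.00439, 0.00261, 0.00370 and 0.00313 at day 14, groups that did not overlap. In Het it went from 0.00128, 0.00135, 0.000883 and 0.000840 to 0.00113, 0.000745, 0.00755 and 0.00266, and these overlapped. The log2 fold changes were 1.26 for mt-Tg (SE 0.38, edgeR adjusted p = 0.00877) and 1.14 for mt-Nd3 (SE 0.37, edgeR adjusted p = 0.0147), and both genes lie inside the copied stretch.

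mt-Tl1, the other leucine tRNA, fell. Its RQ was 0.0437, 0.0309, 0.0328 and 0.0300 in WT at day 8 and 0.0449, 0.0164, 0.0163 and 0.0229 at day 14. In Het it was 0.0470, 0.0340, 0.0170 and 0.0300 at day 8 and 0.0235, 0.00916, 0.0201 and 0.0190 at day 14. Replicates 2 to 4 of WT were all lower at day 14, while WT replicate 1 was not, and the groups of both genotypes overlapped. The log2 fold change was −0.65 (SE 0.25, edgeR adjusted p = 0.0341), called in 31 of 43 settings and in neither genotype alone.

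**Figure D4:**
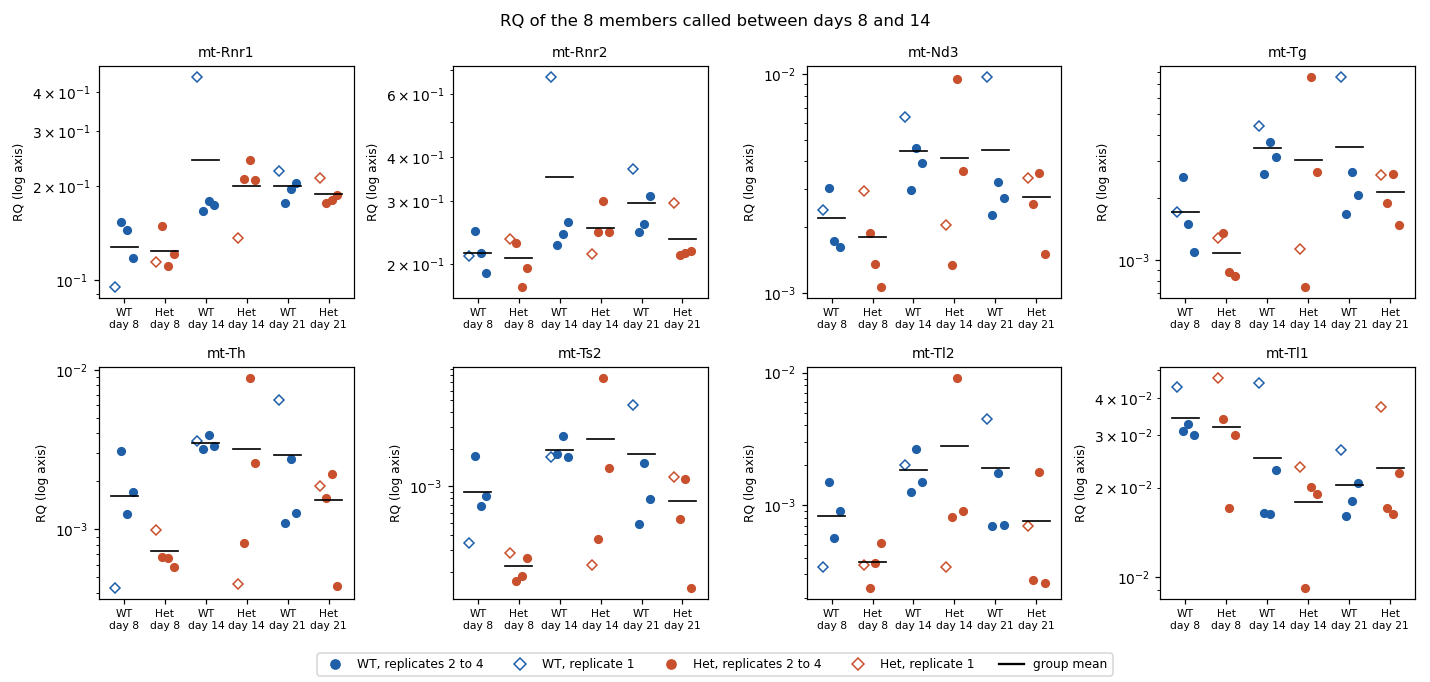
RQ (log axes) in each library of the 8 members called between days 8 and 14, by genotype and day, with open diamonds for replicate 1 and black bars for group means. mt-Rnr1 in WT is at 0.0948 to 0.153 on day 8 and at 0.166 to 0.448 on day 14, and Het day 14 replicate 3 is the highest Het library for mt-Th, mt-Ts2, mt-Tl2, mt-Tg and mt-Nd3.

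In WT alone 2 members were called from day 8 to day 14, mt-Rnr1 (0.92) and mt-Rnr2 (0.70). In Het alone 5 were called, mt-Rnr1 (0.69), mt-Tg (1.52), mt-Th (2.21), mt-Ts2 (3.48) and mt-Tl2 (2.95). The share of all genes called in each genotype alone is not given here, so these counts do not show a difference between genotypes. Whether the time course differed between genotypes was tested only as the Het effect at days 14 and 21 minus that at day 8, in which edgeR called 0 members (0.177% of all genes), with 0 at an unadjusted p under 0.05, and DESeq2 called 0. Without replicate 1, 15 members were called from day 8 to day 14, where 62.7% of all genes were called.

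From day 14 to day 21 edgeR called 0 members (18.2% of all genes), with 0 at an unadjusted p under 0.05, and DESeq2 called 0. The median log2 fold change was 0.15 for the 13 mRNAs and 0.06 for all genes. mt-Co1 had the lowest adjusted p of the 7 mRNAs, with a log2 fold change of 0.27 (SE 0.14, edgeR adjusted p = 0.208), or 0.74 in replicate 1 and 0.13 in replicates 2 to 4. Without replicate 1, 5 members were called, all of them lower, where 31.2% of all genes were called in either direction. They were mt-Co3 (−0.65), mt-Th (−1.36), mt-Ts2 (−1.83), mt-Tl2 (−1.59) and mt-Tp (−0.42), the proline tRNA. For mt-Th the estimate was 1.46 in replicate 1 and −1.18 in replicates 2 to 4.

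Among the most abundant tRNAs, none of mt-Te, mt-Tn, mt-Tc, mt-Tp and mt-Ta passed the test in any comparison as fitted without a block. With the replicate block mt-Tp was called from day 8 to day 14 (0.59, edgeR adjusted p = 0.00178), and without replicate 1 both mt-Tp (0.66, edgeR adjusted p = 0.000104) and mt-Te (0.50, edgeR adjusted p = 0.0424) were. mt-Te had RQ of 0.137, 0.0718, 0.0809 and 0.0978 in WT at day 21 and of 0.0642, 0.0691, 0.0651 and 0.0614 in Het, groups that did not overlap. At day 14 it was 0.0853, 0.0865, 0.0977 and 0.0928 in WT and 0.0389, 0.0404, 0.138 and 0.0758 in Het, where Het replicate 3 was above all WT libraries. The log2 difference over both days was −0.43 (SE 0.21, edgeR adjusted p = 0.179). The alanine, asparagine, cysteine and tyrosine tRNAs mt-Ta, mt-Tn, mt-Tc and mt-Ty adjoin one another on the minus strand and together ran from 153 to 5215 counts per library, the lowest in Het day 14 replicate 1 and the highest in Het day 14 replicate 3.

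The scale mattered for directions over time. Relative to the housekeeping genes the median of all genes from day 8 to day 14 was 0.12, but it was 0.00 under TMM and −0.15 under total counts, and the share of called genes that were higher went from 71.7% to 51.3% and 30.9%. For the 7 mRNAs outside the stretch the median was 0.13, 0.02 and −0.14 in turn. Between genotypes at days 14 and 21 the share of called genes that were higher in Het was 47.3%, 62.0% and 77.5%, and the 7 mRNAs kept medians below 0, at −0.23, −0.19 and −0.14. At day 8 that share was 50.8%, 65.9% and 64.4%, and from day 14 to day 21 it was 67.3%, 51.1% and 50.4%.

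Nuclear genes for mitochondrial gene expression were taken from a list of 76 genes, of which 75 were found and tested. Between genotypes at days 14 and 21 edgeR called 10 of the 75, beside 15.3% of all genes, 8 higher and 2 lower in Het (median log2 fold change 0.04 against −0.05 over all genes). The calls were 3 translation factors, 2 genes of RNA stability and polyadenylation, and 1 each of transcription, mtDNA replication, RNA cleavage, RNA modification and nuclear regulators. Under TMM 17 were called (3987 of all 20287 genes) and under total counts 27 (4284 of all genes). Without replicate 1 it was 30, but without replicate 2, 3 or 4 only 1 or 2 were, and the shares of all genes in these fits are not given here.

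Tsfm, the mitochondrial elongation factor Ts, had the largest rise. Its 4 libraries ranged from 0.0294 to 0.0309 in WT and from 0.0334 to 0.0619 in Het at day 14, and from 0.0235 to 0.0309 in WT and 0.0323 to 0.0465 in Het at day 21, without overlap on either day. At day 8 the levels were 0.0319 to 0.0323 in WT and 0.0290 to 0.0307 in Het. The log2 fold change of Tsfm at days 14 and 21 was 0.67 (SE 0.09, edgeR adjusted p = 0.000144), and the change of this effect from day 8 was 0.77 (SE 0.16, edgeR adjusted p = 0.049996), the 1 gene of the list called there. That last call was kept in 9 of 41 settings and was lost, among others, under TMM and under total counts. Tsfm shares 165 of its 2904 exon bases with Avil on the opposite strand, which gave a log2 difference of 3.24 between genotypes at days 14 and 21. Since the strand rule of the counting is not given in the sources used here, reads within the shared bases cannot be told apart. The part of such reads in the Tsfm difference was not tested.

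Gfm2, a mitochondrial ribosome recycling factor, was higher in Het by 0.26 (SE 0.08, edgeR adjusted p = 0.0286), and Tk2, the mitochondrial thymidine kinase, by 0.22 (SE 0.04, edgeR adjusted p = 0.00298). Ppargc1a, a coactivator of mitochondrial biogenesis, was lower by a log2 of −0.52 (SE 0.17, edgeR adjusted p = 0.0402), a call kept in 20 of 44 settings. Mterf2, of the mitochondrial transcription termination factor family, gave −0.42 (SE 0.09, edgeR adjusted p = 0.00632), and 398 of its 1752 exon bases also belong to Tmem263 on the opposite strand, at −0.43. The mitochondrial RNA polymerase Polrmt (0.05), the mtDNA packaging and transcription factor Tfam (−0.01) and the mtDNA polymerase Polg (0.04) were not called, while the mRNA-stabilizing protein Lrpprc was (0.13, SE 0.04, edgeR adjusted p = 0.0224), in 33 of 44 settings. At day 8 edgeR called 0 of the 75 between genotypes.

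From day 8 to day 14, 31 of the 75 were called, beside 47.9% of all genes, 25 higher (34.3%) and 6 lower (13.6%), by RNA modification 7, transcription 6, mtDNA replication 6, RNA stability 5, translation factors 4, RNA cleavage 2 and nuclear regulators 1. Under TMM 9 of 32 calls were higher (5221 of 10168 over all genes), and under total counts 4 of 47 (3571 of 11563), with 15 of the 31 opposite in sign. The 8 called genes named next kept their sign in 43 of 43 alternative settings. Relative to the housekeeping genes Gfm2 rose by 0.67, the mtDNA polymerase subunit Polg2 by 0.60 and Tk2 by 0.55 on the log2 scale. Mterf4 fell by 1.48, and 1855 of its 5271 exon bases lie opposite Sned1, which fell by 1.83. The poly(A) nuclease Pde12 fell by 0.40, the nuclease and helicase Dna2 by 0.38, Polrmt by 0.18 and Lrpprc by 0.15, while Tfam (0.14) and Polg (−0.09) were not called. Polg2 shares 132 of its 4356 exon bases with Milr1 on the opposite strand, a gene with a log2 change of 1.96 here.

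From day 14 to day 21, 11 of the 75 were called, beside 18.2% of all genes, 4 higher and 7 lower. Tk2 rose by 0.48, Gfm2 by 0.38 and Polg2 by 0.27 on the log2 scale, a call that Polg2 kept in 32 of 43 settings and lost, among others, under TMM and total counts. The rRNA methyltransferase Mrm3 fell by 0.35, the nuclease Exog by 0.34 and the pseudouridine synthase Pus1 by 0.30. Polrmt (−0.09), Tfam (0.02), Polg (−0.06) and Lrpprc (−0.10) were not called.

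**Figure D5:**
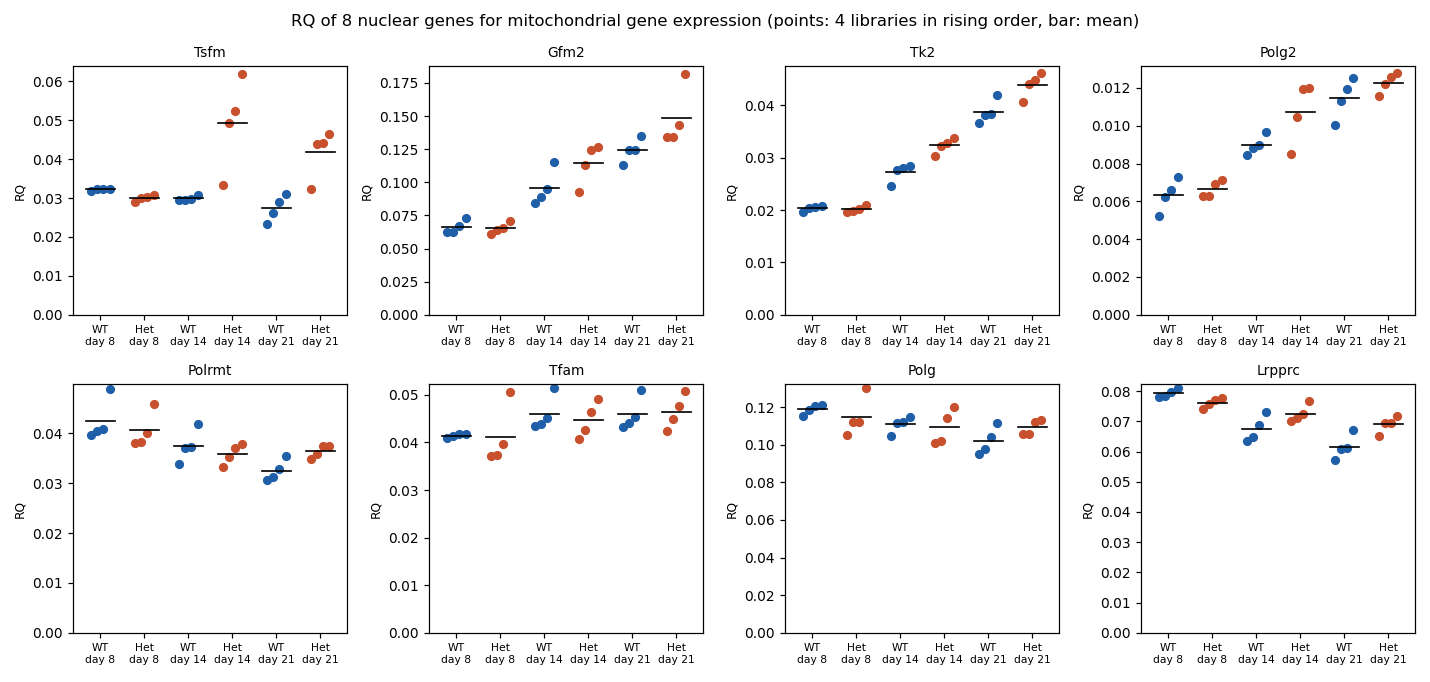
RQ (linear axes from 0) of 8 nuclear genes for mitochondrial gene expression by genotype and day, with the 4 libraries of a group as points in rising order and the mean as a bar. Tsfm in Het lies above WT at days 14 and 21 without overlap, Tk2 and Gfm2 are higher at each later day, and Polrmt, Tfam and Polg differ little between genotypes.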

How the data were processed

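Polyadenylated RNA of 24 OB cultures was sequenced from Illumina TruSeq libraries. The authors deposited raw counts per gene, 1 library per file, with 55335 genes and no molecular identifiers. The submitters' processing notes list cutadapt 2.5, STAR 2.73a, Subread and featureCounts 1.6.4 with mm10. How strand and reads with several matches were treated is not given in the sources used here. IDs of 54587 genes matched GENCODE mouse release 21 (GRCm38), from which lengths, positions and sequences were taken. Copies were searched among its transcripts.

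Counts were tested with edgeR 4.0.16 in R 4.3.3 (glmQLFit and glmQLFTest) on all 24 libraries, scaled by the geometric mean of 4 housekeeping genes. Low counts were removed with filterByExpr, and p-values were adjusted over the remaining 20287 genes (Benjamini-Hochberg, 0.05). Het and WT were compared at day 8 and over days 14 and 21, day 14 was compared with day 8 and day 21 with day 14, and the difference of the genotype effects gave the last of 5 comparisons. Totals of 17140202 to 59734231 counts set the precision. Intervals and p-values at low counts cover only counting error and the spread between libraries of a group, which includes differences between replicate numbers. DESeq2 1.42.0, TMM, total counts, filters, the housekeeping scale without each of its genes in turn and left-out replicates were tried as alternatives. Each of the 24 libraries left out in turn, and each genotype alone, were chosen after seeing the data.

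All 12 correlations of deviations between same-numbered WT and Het libraries exceeded 0.1 (0.24 to 0.78, median 0.43, against −0.08 for 36 pairs of different numbers). Replicate number as a block was fitted as an alternative only. Estimates, errors and p-values come from the fit without a block unless the block is named. Different-number pairs with replicate 1 gave −0.64 to −0.26 and those among replicates 2 to 4 gave 0.09 to 0.48, near the 0.24 to 0.51 of same-numbered pairs there, so the contrast was mostly replicate 1 against the rest. The labels number the replicates without saying what a number shares. The members, the gene lists and the comparisons were chosen with earlier results of these data known. Named were all mRNAs and rRNAs, the 6 tRNAs with the highest mean count, every tRNA that passed the test, and of the machinery list up to 3 genes per direction and comparison, with Tfam, Polrmt, Lrpprc and Polg always. The tRNAs mt-Tv, mt-Td, mt-Tk and mt-Ty and the nuclear genes Avil, Tmem263, Sned1 and Milr1 were named after their values were seen. The edgeR fit was tested on simulated counts in which only well counted genes were changed, so that test does not cover genes with low counts.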

Additional observations from a re-analysis of the deposited data

Results flagged for a closer look

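Within each group of 4 libraries, the highest and the lowest value were compared with the rest by Dixon's test at the 95% level, for the RQ of the 13 mRNAs, the 2 rRNAs and 10 tRNAs (the 6 with the highest mean count, with mt-Tg, mt-Th, mt-Ts2 and mt-Tl2) and for the share of the library on all members, in 156 groups. A library stood apart in 40 of them, where chance flags about 1 group in 20 (5%). In 37 it was replicate 1 and in 3 it was replicate 3, and in all 40 it was the highest of its group.

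Most of these lay in the copied stretch. For mt-Co2, replicate 1 stood apart in all 6 groups, at RQ 0.0111, 0.0153 and 0.0172 in WT at days 8, 14 and 21 and at 0.0102, 0.00839 and 0.0137 in Het. mt-Atp8 was at 0.00523, 0.00429 and 0.00974 in WT, and at 0.00427 and 0.00346 in Het at days 8 and 21. mt-Atp6 was at 0.0140, 0.0143 and 0.0198 in WT, and at 0.0130 and 0.0121 in Het at days 8 and 21. mt-Co3 was at 0.0106 and 0.0111 in WT at days 14 and 21, and at 0.00975 and 0.00980 in Het at days 8 and 21. mt-Nd4l was at 0.00384 and 0.00444 in WT at days 14 and 21 and at 0.00377 in Het at day 8, while mt-Nd3 was at 0.00974 and mt-Tg at 0.00756 in WT at day 21.

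Outside the stretch, WT day 14 replicate 1 stood apart for mt-Rnr1 (0.448), mt-Rnr2 (0.671), mt-Nd1 (3.65), mt-Co1 (11.6), mt-Nd4 (2.48) and mt-Cytb (8.05). Het day 21 replicate 1 did so for mt-Rnr2 (0.297), mt-Nd2 (1.94), mt-Nd4 (2.85), mt-Cytb (8.47) and mt-Tp (0.0427), and WT day 21 replicate 1 for mt-Nd4 (2.69). Replicate 3 was the library apart for mt-Ts2 at day 14, at 0.00254 in WT and 0.00762 in Het, and for mt-Tl2 at 0.00916 in Het at day 14.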

How the results depend on the processing

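The 5 comparisons were recomputed under other scalings, tests, filters and covariates and without each replicate number or library. Of the counts of called members and the median changes of the mRNAs, 632 alternative values were taken as unmoved and 8 moved, where a count within 1.5 times of the reported one, or a median within 1 SD between libraries (0.76 on the log2 scale for the 13 mRNAs, 0.33 for the 7), counted as unmoved even if its sign turned. Each reported median was itself smaller in size than its SD, so this rule could hardly label a median as moved. The tally therefore says little about how stable the medians were. Between genotypes at days 14 and 21 the count was 0 and became 2 without Het day 14 replicate 3. From day 8 to day 14 the count of 8 became 2 in WT alone and 5 in Het alone, ran from 1 to 15 without a replicate number (15 without replicate 1, 1 without replicate 3, 3 without replicate 4) and from 3 to 9 without a single library. From day 14 to day 21 the count of 0 became 5 without replicate 1. Apart from the fits without replicate 1, the shares of all genes called in these alternatives are not given here. Left-out replicates moved the median log2 change of the 13 mRNAs over −0.52 to −0.17 between genotypes at days 14 and 21, −0.50 to −0.13 at day 8, −0.07 to 0.29 from day 8 to day 14 and −0.18 to 0.29 from day 14 to day 21.

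For single members, 4566 alternative values kept their call or lack of one, 41 lost the call, 13 gained one and 2 were labelled reversed. Values that stayed without a call did not always keep their sign. From day 8 to day 14 mt-Nd1 ran from −0.19 to 0.24 and mt-Cytb from −0.22 to 0.16 over the alternatives. Without replicate 1, mt-Atp6 turned from −0.32 to 0.66 from day 8 to day 14, and mt-Co3 from 0.05 to −0.65 from day 14 to day 21. Over all left-out replicates and libraries these values ran from −0.97 to 0.73 for mt-Atp6 and from −0.65 to 0.48 for mt-Co3. The replicate block raised the members called from day 8 to day 14 from 8 to 10, adding mt-Ti and mt-Tp, and changed no other call of a member. The cause of these changes was not tested.

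The counts of mt-Tv, mt-Td and mt-Tk were too low to test, for a cause that was not tested, and libraries of mt-Atp8, mt-Nd4l, mt-Th, mt-Ts2 and mt-Tl2 hold as few as 1 to 4 counts. With a minimum count of 50, mt-Ts2 and mt-Tl2 were not tested. The part of the assignment of reads with several matching places in the counts inside the copied stretch was not tested.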
